A study of Mus musculus with 8 samples.

Results

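Hypoxia-inducible genes were followed through the response of NMuMG cells to TGF-β. The set held 9 of the 37310 annotated genes, *Stc1*, *Stc2*, *Hif1a*, *Egln3*, *Vegfa*, *Adm*, *Ndrg1*, *Bnip3* and *Ankrd37*, each matched to a single row of the count table by its symbol. The set was chosen by the level of *Stc1*, which was higher in the libraries labelled knockout, and the values of the other genes were taken as they came. NMuMG is an established epithelial line from normal mouse mammary gland. RNA-seq had been carried out in 4 groups of 2 libraries, namely untreated control cells, control cells given TGF-β1 at 10 ng/ml for 2 h, untreated cells labelled knockout, and cells labelled knockout given the same treatment. The knockout was made with CRISPR-Cas9 by deleting a stretch from the promoter into the first exon of a long non-coding RNA gene, *Lnc-Nr6a1*, and lines were grown from single edited cells, so a difference between genotypes is also a difference between derived lines. The libraries are described as 2 biological replicates per condition, but nothing states how the cultures were separated, and the p-values below measure only the spread between these libraries.

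Cells sense oxygen through the HIF transcription factors. With oxygen present, prolyl hydroxylases of the Egln family modify the HIF-α subunits, the VHL protein binds the modified subunit, and the subunit is degraded. When oxygen falls, HIF-α pairs with Arnt and binds hypoxia response elements, whose core is ACGTG or GCGTG, near genes for angiogenesis, glycolysis, mitophagy and feedback on HIF itself. Several of these genes also respond to growth factors and to TGF-β at normal oxygen. None of the samples was labelled as hypoxic.

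Library totals ran from 4297832 to 13574397 reads, and both totals of untreated cells labelled knockout lay below those of the other groups. A level of 3 counts corresponded to between 0.238 and 0.661 CPM, a gene's reads scaled to 1000000 reads of its library with TMM factors, which bears on *Stc1*, *Stc2* and *Ankrd37*. The targeted gene, annotated as *Gm13507* within *Nr6a1* on the opposite strand, had 3 and 14 counts in untreated control cells, 25 and 35 after TGF-β, 0 and 0 in treated libraries labelled knockout, and 11 and 7 in their untreated counterparts. The untreated libraries were thus not separated by the counts of the targeted gene, and "labelled knockout" is kept throughout. The paper reports that RT-qPCR found complete loss of the *Lnc-Nr6a1* isoforms in homozygous clones, which it identified by PCR of the deletion. Summed levels of 6 epithelial markers were 5872 to 10926 CPM, carried by keratins and *Cdh1*, while *Cldn7* was at 0 in every library and *Epcam* at 0 in 7 of 8, with 2 counts in the other. By contrast, 5 fibroblast markers summed to at most 0.874 CPM, 4 endothelial markers to at most 0.847 CPM and 4 leukocyte markers to between 2.15 and 5.45 CPM.

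Promoter sequences are shown first for members whose values carry the comparisons below, so that the occurrences of the HIF core motif can be seen; the motif played no part in choosing the genes. RefSeq windows on GRCm38.p6 ran from 250 bases before to 50 bases after a start, and 7 of the 9 members had at least 1 (8 windows in all), with no entry for *Stc1* and *Ndrg1*. ACGTG and GCGTG were searched on both strands, so that a palindromic CACGTG counts on each strand, and matches are in capitals in these 5′ to 3′ gene-strand sequences. The Egln3 window lies at chr12:54203825-54204124, the Vegfa window at chr17:46032328-46032627, the Bnip3 window at chr7:138909457-138909756 and the Ankrd37 window at chr8:45999801-46000100, all on the minus strand.
Egln3: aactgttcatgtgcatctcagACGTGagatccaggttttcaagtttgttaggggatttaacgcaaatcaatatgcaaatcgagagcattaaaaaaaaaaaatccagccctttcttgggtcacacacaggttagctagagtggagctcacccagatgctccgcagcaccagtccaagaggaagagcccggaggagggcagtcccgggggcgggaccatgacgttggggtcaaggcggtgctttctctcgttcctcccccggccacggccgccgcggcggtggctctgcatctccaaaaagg
Vegfa: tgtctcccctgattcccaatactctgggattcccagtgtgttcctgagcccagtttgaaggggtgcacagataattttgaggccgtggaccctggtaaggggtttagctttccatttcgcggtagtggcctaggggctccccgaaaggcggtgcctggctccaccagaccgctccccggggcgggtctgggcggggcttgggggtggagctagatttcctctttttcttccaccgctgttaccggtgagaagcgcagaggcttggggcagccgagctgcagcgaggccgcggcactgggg
Bnip3: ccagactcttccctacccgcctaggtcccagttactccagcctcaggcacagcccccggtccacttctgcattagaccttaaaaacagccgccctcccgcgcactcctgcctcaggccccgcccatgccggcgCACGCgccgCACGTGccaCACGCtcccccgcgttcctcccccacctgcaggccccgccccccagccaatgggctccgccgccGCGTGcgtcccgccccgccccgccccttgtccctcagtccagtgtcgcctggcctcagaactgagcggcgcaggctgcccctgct
Ankrd37: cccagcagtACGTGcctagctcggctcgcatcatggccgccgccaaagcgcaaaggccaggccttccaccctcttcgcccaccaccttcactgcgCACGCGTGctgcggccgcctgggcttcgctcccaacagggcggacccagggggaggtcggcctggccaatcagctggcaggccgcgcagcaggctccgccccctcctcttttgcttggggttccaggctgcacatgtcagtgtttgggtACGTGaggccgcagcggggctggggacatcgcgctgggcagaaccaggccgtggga

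A motif was present in 7 of the 8 windows, the exception being the window of *Vegfa* shown here. The other *Vegfa* window (chr17:46025114-46025413) lies inside the gene and held 2 matches, but its first 109 bases, with both matches, are coding sequence of an annotated *Vegfa* transcript, and it is not shown as a promoter. Over all 32851 windows of the same length 43.8% held ACGTG or GCGTG and 19.6% held ACGTG, so a match of 5 letters is common. *Bnip3* carried 5 matches, including the CACGTG palindrome, *Ankrd37* carried 4, *Hif1a* 3, *Stc2* and *Adm* 2 each, and *Egln3* 1. These matches are a description of letters in the window and not of binding. Sequence outside the windows was not searched, so a window without a match does not show that a gene lacks the motif.

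The members spanned a wide range of levels. Scaled to exon length, in CPM per kilobase, the mean level in untreated control cells was 33.5 ± 1.52 (SD, n = 2) for *Hif1a*, 20.6 ± 0.251 for *Ndrg1*, 19.0 ± 1.38 for *Vegfa* and 17.1 ± 0.147 for *Egln3*. Next came *Bnip3* at 6.11 ± 0.479 and *Ankrd37* at 1.68 ± 0.414, followed by *Stc2* at 0.153 ± 0.0510 and *Stc1* at 0.0433 ± 0.0201. The libraries of neighbouring genes in this order did not overlap, although *Ndrg1* and *Vegfa* differed in mean by about the spread of *Vegfa*, and *Stc1* and *Stc2* rested on 1 to 8 counts a library. *Adm*, which encodes the vasodilator peptide adrenomedullin (chr7:117771175-117773331, mm9), had 0 counts among 74593020 reads in all libraries, which allows up to 0.0408 CPM by counting error alone.

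**Figure D1:**
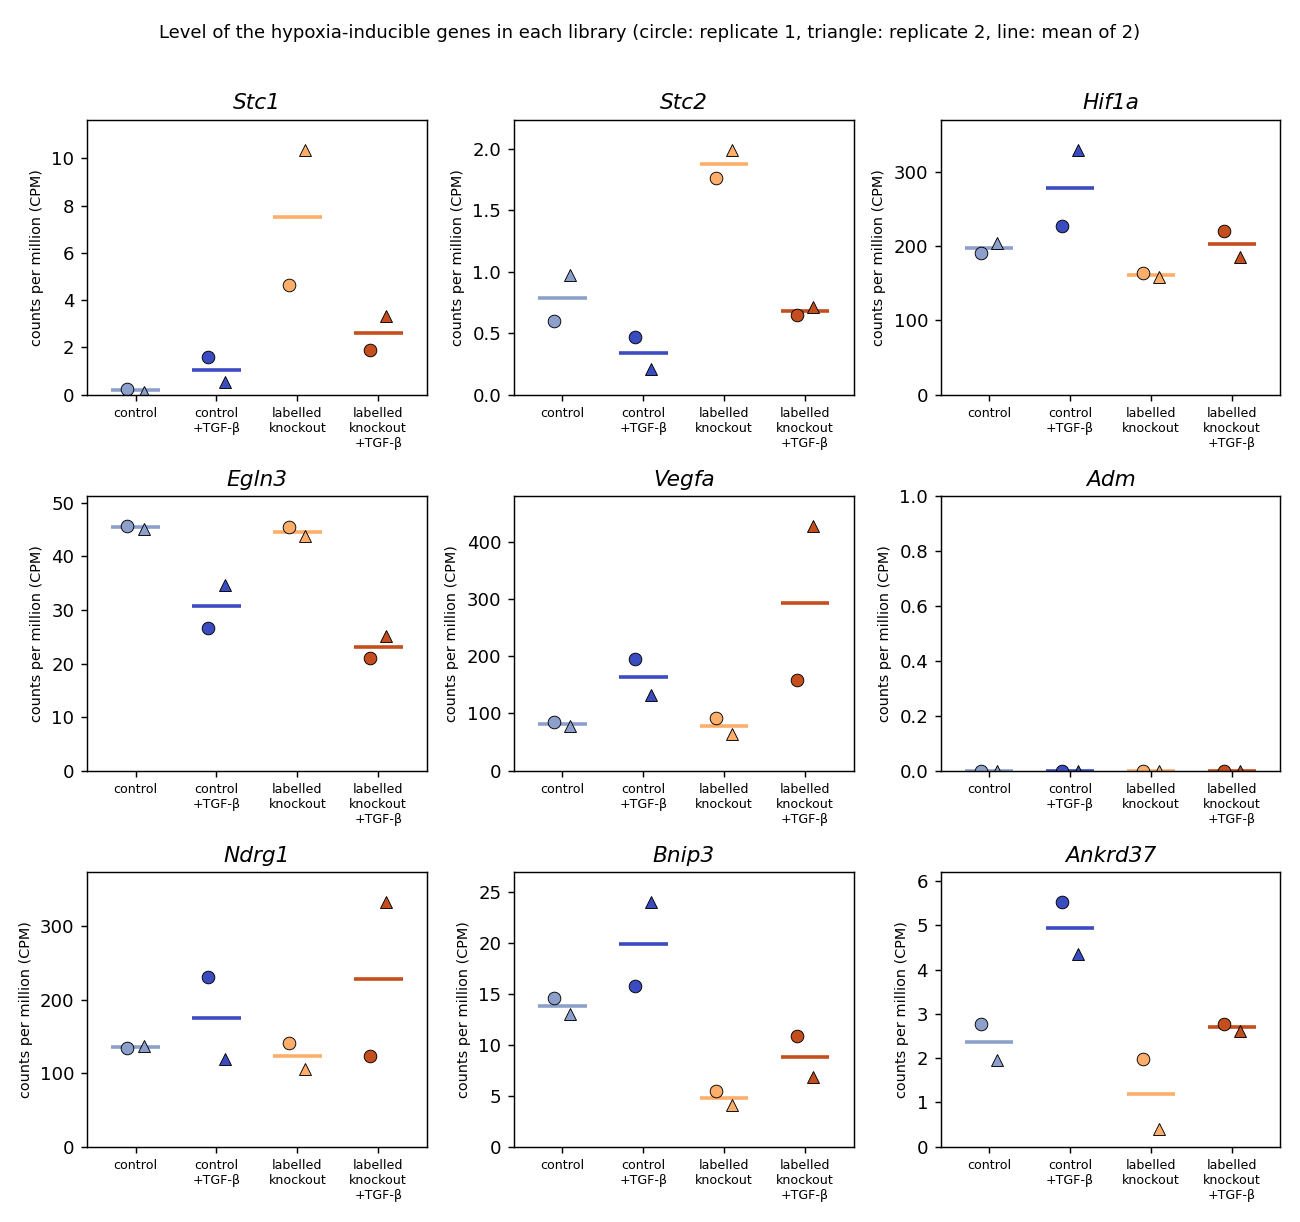
Level of each gene in each library in CPM on a linear axis starting at 0, by group; circles are replicate 1, triangles replicate 2 and lines the mean of 2. *Stc1* reached its highest level, 10.4 CPM, in an untreated library labelled knockout, *Egln3* was lower in every treated library, and *Vegfa* was higher in every treated library.

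*Stc1* (chr14:69647295-69659861, mm9, plus strand) encodes stanniocalcin 1, a secreted glycoprotein known from calcium and phosphate regulation and a frequent target of HIF. It had 2 and 1 counts in untreated control cells, 17 and 5 after TGF-β, 21 and 78 in untreated libraries labelled knockout and 23 and 42 in treated ones. In CPM these were 0.241 and 0.122, 1.59 and 0.529, 4.63 and 10.4, and 1.87 and 3.34. Both libraries of each genotype moved together and no groups that differed by 1 factor overlapped, yet the direction after TGF-β was opposite in the 2 genotypes. From summed counts the ratio of labelled knockout to control was 45.1 without treatment, with a 95% counting interval of 15.0 to 222, and 2.39 after TGF-β, with an interval of 1.46 to 4.07. TGF-β was accompanied by a ratio of 6.01 (1.80 to 31.4) in control cells and of 0.319 (0.229 to 0.440) in libraries labelled knockout. The intervals cover counting error only. With single libraries left out, the fitted log2 difference between genotypes ran from 4.57 to 5.81 untreated and from 0.71 to 2.29 treated. The log2 fold change after TGF-β then ran from 1.46 to 3.04 in control cells and from -1.98 to -0.82 in libraries labelled knockout. Since the gene was selected on its knockout level and each of these comparisons uses those libraries or their control, the values are given without a test.

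*Stc2* (chr11:31257307-31270074, mm9, minus strand), the paralog that encodes stanniocalcin 2, was likewise scarce, with 5 and 8 counts in untreated control cells, 5 and 2 after TGF-β, 8 and 15 in untreated libraries labelled knockout and 8 and 9 in treated ones. In CPM, the untreated libraries labelled knockout stood highest at 1.76 and 1.99, against 0.603 and 0.976 in untreated control cells. The treated libraries had 0.469 and 0.212 CPM for control and 0.652 and 0.715 CPM for labelled knockout, below the untreated libraries of their own genotype. The log2 fold change after TGF-β was -1.16 (SE 0.71, adjusted p = 0.327) in control cells and -1.45 (SE 0.59, adjusted p = 0.184) in libraries labelled knockout. Neither passed the test, and the difference between them was -0.29 (SE 1.00, adjusted p = 0.966). With single libraries left out, the change in control cells ran from -1.85 to -0.74.

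The oxygen-sensing members came next. *Hif1a* (chr12:75002362-75048517, mm9, plus strand) encodes the oxygen-regulated HIF-1α subunit, which is controlled mostly at the level of the protein. Its levels were 191 and 204 CPM in untreated control cells, 227 and 330 after TGF-β, 164 and 158 in untreated libraries labelled knockout and 220 and 186 in treated ones. Treated and untreated libraries did not overlap in either genotype, but the log2 fold changes of 0.50 (SE 0.18, adjusted p = 0.123) and 0.33 (SE 0.19, adjusted p = 0.328) did not pass the test. Without the first treated control library the change in control cells was 0.73 (adjusted p = 0.0227). The span of the gene, introns included, overlaps the antisense lincRNA *Gm15283* over 21050 bases, while its exons total 5896 bases. Overlap of exons was not computed, so shared reads were not shown. The paper names a stranded library kit, but no strand setting of the counting is given in the sources used here.

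*Egln3* (chr12:55279968-55304847, mm9, minus strand) encodes PHD3, a HIF prolyl hydroxylase that is itself a HIF target and so part of a feedback loop. Untreated libraries were close to each other, at 45.7 and 45.2 CPM for control and 45.4 and 43.7 CPM for labelled knockout. After TGF-β control cells had 26.7 and 34.7 CPM and cells labelled knockout had 21.0 and 25.1 CPM, so every treated library lay below every untreated one. *Egln3* fell by 0.95 on the log2 scale in libraries labelled knockout (SE 0.18, adjusted p = 0.0169), and the change of -0.57 in control cells did not pass the test (SE 0.18, adjusted p = 0.0838). The difference of the responses was -0.38 (SE 0.26, adjusted p = 0.710). The call rested on all 4 libraries of the comparison, since leaving out any of them gave adjusted p = 0.0595 to 0.118, with a log2 fold change of -0.80 to -1.05. In control cells the gene was called only without the second treated library, at -0.77 (adjusted p = 0.0443).

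*Vegfa* (chr17:46153942-46169326, mm9, minus strand), the angiogenic ligand and a classical HIF target, had the only rise after TGF-β that passed the test among the members, in libraries labelled knockout. It had 85.9 and 77.5 CPM in untreated control cells and 196 and 132 CPM after TGF-β. In cells labelled knockout it had 91.3 and 64.1 CPM untreated and 159 and 428 CPM treated. The treated libraries were above the untreated ones in both genotypes, and the 2 treated libraries labelled knockout stood 2.69-fold apart. In libraries labelled knockout the gene rose, at a log2 fold change of 1.92 (SE 0.41, adjusted p = 0.0240), and the estimate in control cells was 1.00 (SE 0.40, adjusted p = 0.142). The difference of the responses was 0.92 (SE 0.56, adjusted p = 0.672). Without the second treated library labelled knockout the rise there was 1.07 (adjusted p = 0.0834), and without the first or the second untreated library labelled knockout it was 2.20 (adjusted p = 0.115) or 1.70 (adjusted p = 0.205). With single libraries left out, the estimate in control cells ran from 0.67 to 1.26. Conversely, that estimate passed the test without either treated library labelled knockout. Neither of these is part of the comparison in control cells, but all groups share 1 estimate of the spread.

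*Ndrg1* (chr15:66760883-66801202, mm9, minus strand), a stress- and hypoxia-responsive gene of the N-myc downstream-regulated family, had a pattern over the libraries like that of *Vegfa*. Its levels were 134 and 137 CPM in untreated control cells, 232 and 120 after TGF-β, 142 and 106 in untreated libraries labelled knockout and 123 and 333 in treated ones. In both genotypes 1 treated library was high and the other lay within or below the untreated range. The log2 fold changes were 0.38 (SE 0.42, adjusted p = 0.609) in control cells and 0.89 (SE 0.43, adjusted p = 0.255) in libraries labelled knockout, and neither passed the test. The high library decided each estimate, which was -0.19 in control cells without the first treated library, and in libraries labelled knockout 0.022 (adjusted p = 0.989) without the second treated library and 1.46 (adjusted p = 0.0281) without the first. The span of *Ndrg1*, introns included, overlaps those of *Gm17035* (1501 bases) and *Gm2895* (318 bases) on the opposite strand.

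*Bnip3* and *Ankrd37* had positive estimates after TGF-β in both genotypes, and none passed the test. *Bnip3* (chr7:146082519-146101202, mm9, minus strand) encodes a BCL2-family protein of the outer mitochondrial membrane that acts in mitophagy. It was measured at 14.6 and 13.1 CPM in untreated control cells, 15.7 and 24.0 after TGF-β, 5.51 and 4.12 in untreated libraries labelled knockout and 10.8 and 6.83 in treated ones. Every library labelled knockout was below every control library. After TGF-β the log2 fold change was 0.52 (SE 0.30, adjusted p = 0.303) in control cells and 0.90 (SE 0.35, adjusted p = 0.162) in libraries labelled knockout, neither past the test.

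*Ankrd37* (chr8:47082256-47085221, mm9, minus strand), an ankyrin-repeat gene used as a hypoxia marker, had 23 and 16 counts in untreated control cells, 59 and 41 after TGF-β, 9 and 3 in untreated libraries labelled knockout and 34 and 33 in treated ones. In CPM these were 2.77 and 1.95, 5.53 and 4.34, 1.98 and 0.399, and 2.77 and 2.62. The treated libraries stood above the untreated ones in both genotypes. The log2 fold change was 1.06 (SE 0.53, adjusted p = 0.231) in control cells and 1.33 (SE 0.63, adjusted p = 0.246) in libraries labelled knockout, which did not pass the test. The latter was 2.72 without the first and 0.45 without the second untreated library labelled knockout. The ends of the span of *Ankrd37* overlap the spans of *Ufsp2* (57 bases) and *Lrp2bp* (565 bases) on the opposite strand.

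After TGF-β 5 of the 7 tested members other than *Stc1* had estimates above 0 in each genotype, beside 6695 of all 13028 tested genes in control cells and 6497 in libraries labelled knockout, and few passed the test. Here a gene was called when its edgeR adjusted p was below 0.05 and its log2 fold change exceeded 0.5 in size. In control cells 0 of the 8 members that passed the filter on low counts were called, beside 9.16% of the 13028 genes tested (4.69% higher and 4.47% lower). Leaving *Stc1* aside, 3 of 7 had an unadjusted p below 0.05 in edgeR, beside 26.8% of all tested genes, and DESeq2 and limma-voom also called 0. In libraries labelled knockout 2 of the 8 were called, *Vegfa* higher and *Egln3* lower, beside 6.82% of all genes (4.25% higher and 2.57% lower), and 4 of 7 other than *Stc1* had an unadjusted p below 0.05, beside 22.7%. The log2 fold changes of the 7 other than *Stc1* had medians of 0.50 (control cells) and 0.89 (libraries labelled knockout), against 0.016 and 0 over all tested genes.

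**Figure D2:**
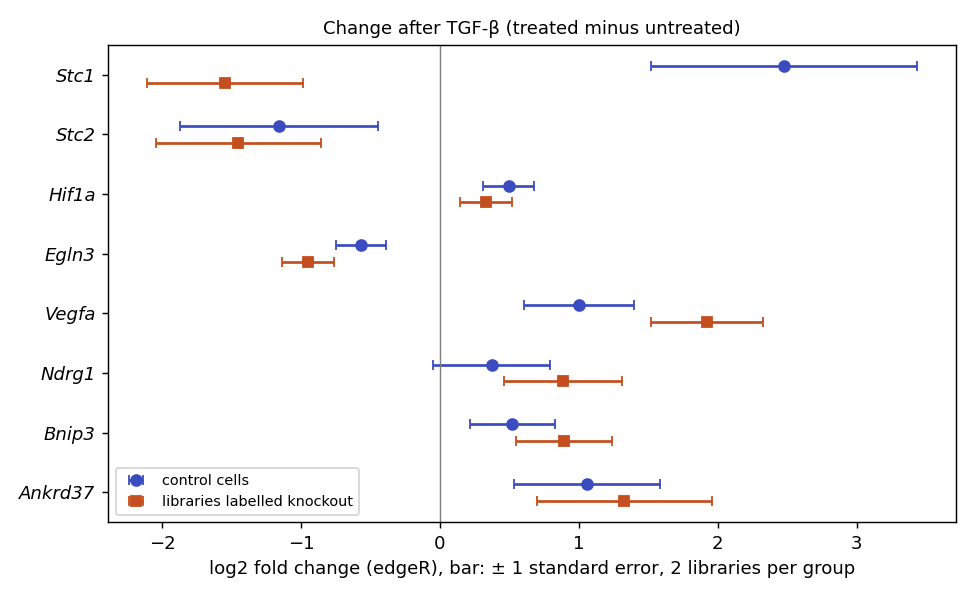
Log2 fold change after TGF-β (treated minus untreated, edgeR) for the 8 members that could be tested; circles are control cells, squares are libraries labelled knockout, and bars are ± 1 standard error with 2 libraries per group. *Stc1* lies on opposite sides of 0 in the 2 genotypes (2.48 and -1.55), and the other 7 members lie on the same side in both.

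The difference of the TGF-β responses between genotypes was then taken for each member as the interaction of genotype and treatment. By edgeR 0 of 7 members other than *Stc1* had an adjusted p below 0.05, and 0 had an unadjusted p below 0.05, also by DESeq2 and limma-voom. Over all tested genes 0 (0%) passed at the adjusted p and 8.70% at the unadjusted p by edgeR, while DESeq2 gave 30 genes at the adjusted p and limma-voom 0. For *Stc1* the fitted difference of log2 fold changes was -4.03 (SE 1.10), a description that includes the libraries on which the gene was selected and a control group of 1 to 2 counts. Without a filter on low counts the difference for *Vegfa* passed the test, at 0.99 (adjusted p = 0.0180). With the filter the *Vegfa* difference was 0.92, did not pass, and ran from 0.075 to 1.496 with single libraries left out. The lowest value came without the second treated library labelled knockout and the highest without the first, so its size depended on these libraries.

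The members were also set side by side between genotypes, as a description, because this is the comparison by which the set was chosen. Without treatment 1 of 8 members met the thresholds of a call, *Stc1*, beside 1.83% of all tested genes (1.03% higher and 0.798% lower). After TGF-β 1 of 8 did so, *Bnip3*, which was lower, beside 15.0% of all tested genes (8.47% higher and 6.57% lower). Since *Stc1* was selected on these values, nothing is read from its count. The fitted log2 difference of *Stc1* was 5.29 (SE 0.82) untreated, a value that depends on the prior count, and 1.27 (SE 0.63) treated. *Bnip3* after TGF-β no longer met them with the replicate block, with only the 4 treated libraries, or without any 1 library other than the first treated library of either genotype. Untreated, *Bnip3* fell short with all libraries but met them with DESeq2, with no filter on low counts, with only the 4 untreated libraries and without any 1 of the treated libraries, at -1.55 to -1.58. *Stc2* had 1.25 (SE 0.61) and 0.96 (SE 0.69), short of the thresholds. With single libraries left out, the values of *Stc2* ran from 0.94 to 1.62 untreated and from 0.54 to 1.65 treated. *Bnip3* had -1.54 (SE 0.35) and -1.17 (SE 0.31), and *Ankrd37*, which met the thresholds in neither, had -1.14 (SE 0.65) and -0.87 (SE 0.50). The untreated value of *Ankrd37* rests on 9 and 3 counts in libraries labelled knockout, where the groups overlapped (1.98 CPM against 1.95 CPM in the lower control library), and it was -2.53 without the first and -0.26 without the second of these libraries. *Hif1a* had -0.29 (SE 0.19) and -0.46 (SE 0.18), *Egln3* had -0.03 (SE 0.18) and -0.41 (SE 0.18), *Vegfa* -0.08 (SE 0.40) and 0.84 (SE 0.39), and *Ndrg1* -0.13 (SE 0.43) and 0.38 (SE 0.42). Without the second treated library labelled knockout the treated values of *Vegfa* and *Ndrg1* were -0.026 and -0.50. The median of the 7 members other than *Stc1* was -0.13 untreated and -0.41 treated (-0.11 and -0.02 with it), against 0.018 and -0.012 over all tested genes. Beside the value of *Bnip3*, the 943 tested genes of chromosome 7 had a median of -0.25 untreated, with 710 of 943 below 0, and of -0.14 treated, with 566 of 943 below 0; their part in the difference was not tested. On chromosome 8, which holds *Ankrd37*, the 695 tested genes ran opposite to its value, with medians of 0.18 untreated and 0.17 treated and 498 and 449 of 695 above 0. The chromosomes of the other tested members had medians of 0.015 to 0.11 untreated and -0.065 to 0.082 treated.

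**Figure D3:**
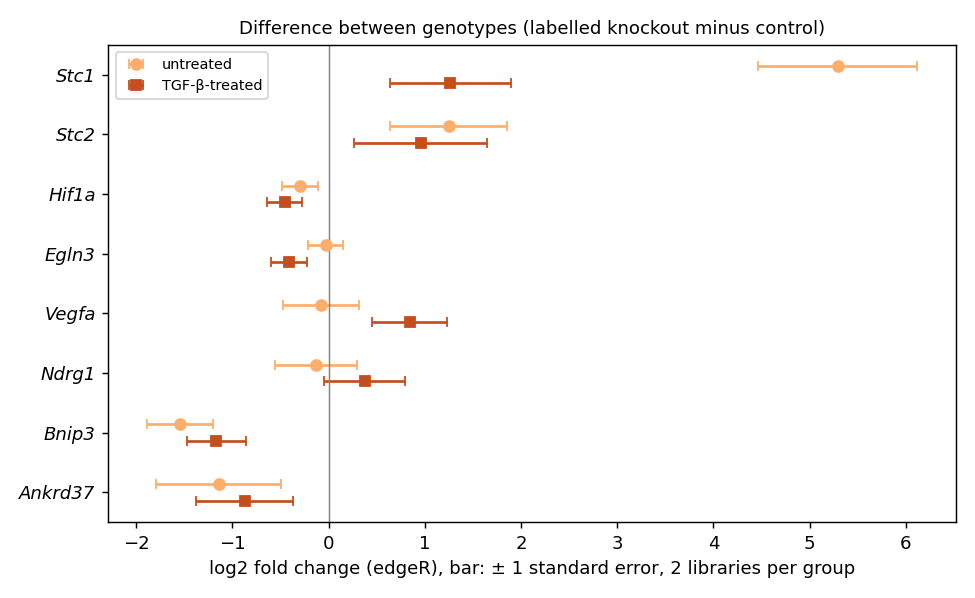
Log2 difference between genotypes (labelled knockout minus control, edgeR) for the same 8 members; circles are untreated and squares TGF-β-treated libraries, and bars are ± 1 standard error with 2 libraries per group. *Stc1* stands at 5.29 untreated and 1.27 treated, while *Bnip3* stands at -1.54 and -1.17.

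The remainder of the pathway was described with 4 lists, holding 89 different genes of which 71 could be tested. The HIF machinery (subunits, hydroxylases, the VHL ligase and coactivators, 14 of 17 tested) was described first. After TGF-β 0 of 14 were called in control cells and 1 of 14 in libraries labelled knockout, beside 9.16% and 6.82% of all tested genes. The 1 that rose was *Cited2*, which encodes an inhibitor of HIF that competes for its coactivator. *Cited2* had 62.6 and 64.3 CPM untreated and 109 and 124 CPM treated in libraries labelled knockout, and rose there, with 0.88 as its log2 fold change (SE 0.15, adjusted p = 0.0111), a call lost without either untreated or the second treated library labelled knockout. The other prolyl hydroxylases had estimates of 0.04 (*Egln1*, SE 0.19) and -0.60 (*Egln2*, SE 0.22) in control cells and of 0.38 (SE 0.19) and 0.02 (SE 0.22) in libraries labelled knockout, and neither was called. *Arnt* and *Vhl* were not called in any comparison, and *Hif3a* had 4 counts in 1 library and 0 in the others. The median log2 fold change of this list was -0.01 in control cells and 0.11 in libraries labelled knockout.

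Between genotypes *Epas1*, which encodes HIF-2α, was the gene of the HIF machinery called with and without TGF-β. It had 12.5 and 9.52 CPM in untreated control cells and 1.98 and 2.79 CPM in untreated libraries labelled knockout. After TGF-β it had 5.53 and 3.28 CPM in control and 0.815 and 1.59 CPM in labelled knockout libraries. *Epas1* was lower in libraries labelled knockout by a log2 difference of -2.17 (SE 0.45, adjusted p = 0.0467) untreated and -1.86 (SE 0.45, adjusted p = 0.0255) treated. The untreated call was lost when any 1 of its 4 libraries was left out (adjusted p = 0.174 to 0.295), with limma-voom (adjusted p = 0.0759) and with the replicate number as a block (adjusted p = 0.0876), while the sign stayed. The treated call was lost without the first untreated control library (adjusted p = 0.0519), the first treated control library (0.0736) or either treated library labelled knockout (0.120 and 0.0593), and in a fit of only the 4 treated libraries (adjusted p = 0.101). After TGF-β *Cited2* (0.69) and *Hif1an* (0.59), the asparaginyl hydroxylase of HIF, were also higher and *Tceb1* (-0.75), an elongin of the VHL ligase, was lower in libraries labelled knockout, with adjusted p of 0.0178, 0.0275 and 0.0353. These calls were lost without 2, 6 and 7 of the 8 libraries in turn.

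Other hypoxia-inducible genes (31 of 38 tested) contained most of the genes that rose with TGF-β. In control cells 9 were called higher and 2 lower, beside 4.69% and 4.47% of all tested genes. In libraries labelled knockout 9 were called higher and 0 lower, beside 4.25% and 2.57%. *Nt5e*, the ectonucleotidase CD73, rose by 3.13 (SE 0.27, adjusted p = 5.07e-04) in control cells and 2.79 (SE 0.28, adjusted p = 7.90e-04) in libraries labelled knockout, and *Ccng2*, a cyclin of cell-cycle arrest, by 1.35 and 1.36. *Bhlhe40*, a transcriptional repressor, rose from 61.2 and 73.6 CPM to 213 and 196 CPM in control cells and from 82.7 and 56.4 CPM to 385 and 468 CPM in cells labelled knockout, or by 1.60 (SE 0.20) and 2.62 (SE 0.21). *Kdm4b*, a histone demethylase, and *Insig2*, a regulator of sterol synthesis, fell in control cells (-0.89 and -0.78). The calls of *Nt5e*, *Ccng2* and *Bhlhe40* held in both genotypes without any 1 library, whereas that of *Kdm4b* was lost without 3 of the 8 libraries in turn and that of *Insig2* without 5. The list had a median of 0.42 in control cells and 0.28 in libraries labelled knockout. None of these genes was called for a difference of the responses.

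Among hypoxia-inducible glycolytic genes (16 of 18 tested) the genes that passed the test after TGF-β encode a hexokinase and 2 bifunctional regulators of phosphofructokinase. *Hk2*, the inducible hexokinase, rose by 1.65 (SE 0.41, adjusted p = 0.0377) in control cells and 2.73 (SE 0.43, adjusted p = 0.00635) in libraries labelled knockout. It was measured at 66.2 and 49.7 CPM in untreated control cells, 231 and 132 after TGF-β, 49.4 and 44.1 in untreated libraries labelled knockout and 172 and 446 in treated ones. Without the second treated library labelled knockout its change there was 1.91, and without the first treated control library its change in control cells was 1.18. *Pfkfb3*, which makes the activator of phosphofructokinase, rose by 1.56 and 1.72, and *Pfkfb4* by 1.60 in libraries labelled knockout. Without the same libraries the changes of *Pfkfb3* were 1.00 in control cells and 1.11 in libraries labelled knockout. In control cells the calls of *Hk2* and *Pfkfb3* were each lost without 5 of the 8 libraries in turn, and in libraries labelled knockout those of *Hk2* and *Pfkfb4* were lost without either untreated library labelled knockout and that of *Pfkfb3* without 5 of the 8. With all libraries these were 2 of 16 genes higher in control cells, beside 4.69% of all tested genes, and 3 of 16 in libraries labelled knockout, beside 4.25%, with 0 lower in both and medians of 0.13 and 0.12. Of the relatives, ligands and receptors of the members (13 of 19 tested), *Nrp2*, a coreceptor for VEGF, rose by 1.02 and 1.43, and *Vegfb*, a relative of *Vegfa*, fell by 1.57 in control cells. Both calls in control cells were lost without the first untreated control library. *Vegfb* thus changed in the direction opposite to the estimate of *Vegfa*, from 26.1 and 18.2 CPM to 7.22 and 7.73 CPM. *Kdr*, the main VEGF receptor of endothelium, had 0 counts in all libraries.

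Over the 4 lists 15 of 71 genes were called after TGF-β in control cells (12 higher and 3 lower), beside 9.16% of all tested genes. In libraries labelled knockout 14 of 71 were called, all 14 higher, beside 6.82%, and for the difference of the responses 0 were, beside 0%. Between genotypes 1 of 71 was called untreated (*Epas1*), beside 1.83%, and 19 of 71 after TGF-β, 10 higher and 9 lower in libraries labelled knockout, beside 15.0%. In the treated comparison *Plod1* (1.13), a collagen lysyl hydroxylase, *Bhlhe40* (1.06), *Insig2* (0.79) and *Bhlhe41* (1.46) were higher, while *P4ha1* (-0.86), *Rora* (-1.91), *Plod2* (-0.71) and *Edn1* (-1.61), the endothelin 1 gene, were lower. Glycolytic *Aldoc* (-3.09), *Pfkp* (-1.21) and *Ldha* (-0.58) were lower and *Pfkfb4* (1.44) was higher, and among the receptors and relatives *Flt1* (0.97), *Ndrg4* (2.26) and *Vegfb* (0.99) were higher. Of these, *Plod1*, *Pfkfb4*, *Flt1* and *Ndrg4* stayed called without any 1 library, and each of the others lost its call without at least 1. With single libraries left out, the treated difference ran from 0.71 to 1.99 for *Bhlhe41* and from -3.85 to -2.58 for *Aldoc*. Untreated, 0 of 16 glycolytic genes were called, with a median log2 difference of -0.30 against 0.018 over all tested genes. Both treatment comparisons and both genotype comparisons draw on the same libraries in turn, so their counts are not independent of each other.

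**Figure D4:**
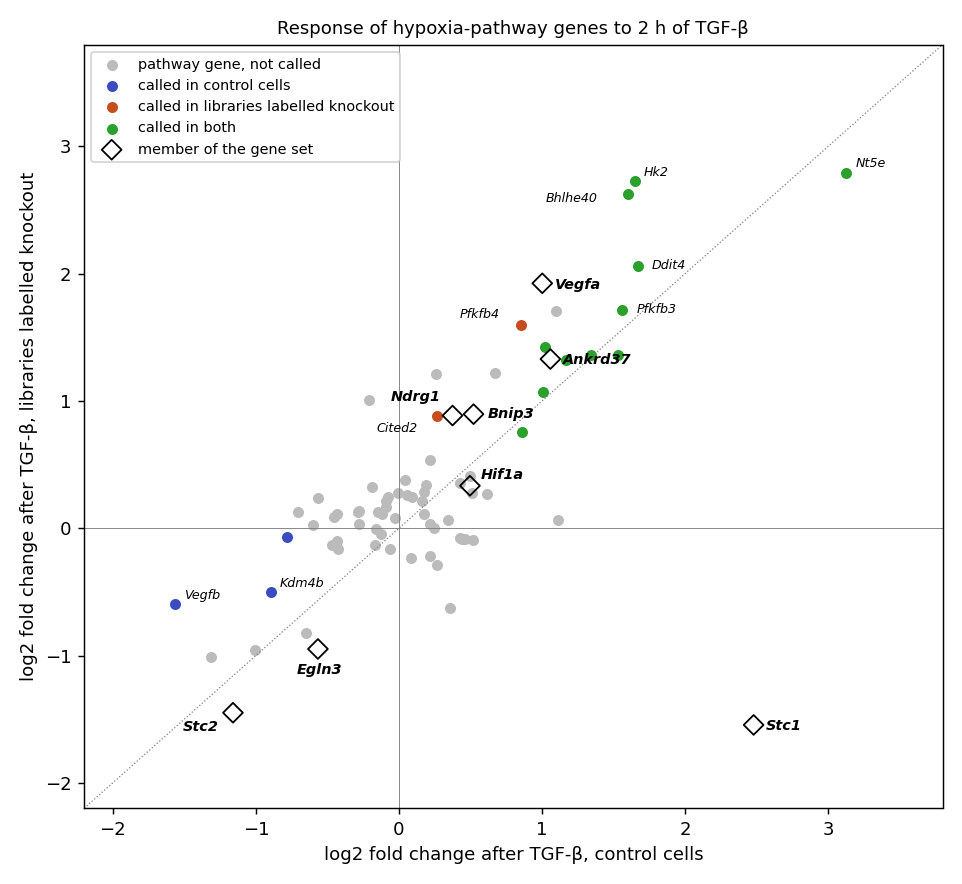
Log2 fold change after TGF-β in control cells (horizontal) against libraries labelled knockout (vertical), edgeR; dots are the other genes of the pathway except 1 not reported here, coloured by the genotype in which they were called, diamonds are the members, and the dotted line marks equal change. *Nt5e* stands at 3.13 and 2.79 near the line, and *Stc1* stands alone at the lower right at 2.48 and -1.55.

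The genes whose log2 CPM over the 8 libraries was most like that of *Stc1*, by Pearson correlation, were *1810034E14Rik* (r = 0.98), *2410066E13Rik* (r = 0.97), *Ptgr2* (r = 0.96), *Vps8* (r = 0.95) and *Arhgef37* (r = 0.95). Each was highest in the untreated libraries labelled knockout, and the libraries, their depth and the groups are shared by all points. *Arhgef37*, a guanine nucleotide exchange factor gene, came nearest in size, with 1 and 0 counts in untreated control cells, 3 and 0 after TGF-β, 7 and 14 in untreated libraries labelled knockout and 8 and 10 in treated ones. By comparison *Vps8* went only from 44.1 and 40.6 CPM in untreated control cells to 57.1 and 59.8 CPM in untreated libraries labelled knockout. Among the members themselves *Stc1* was most like *Stc2* (r = 0.60) and least like *Bnip3* (r = -0.83), and *Vegfa* and *Ndrg1* had r = 0.86, all over 8 libraries and as descriptions.

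The treated replicates differed in a shared way that touches *Stc1*, *Vegfa* and *Ndrg1*, as well as *Hk2* and *Pfkfb3* above. From the first to the second replicate, log2 CPM of *Vegfa* differed by -0.57 in treated control cells and by 1.43 in treated libraries labelled knockout. The gaps of *Ndrg1* were -0.95 and 1.44, and those of *Stc1* were -1.28 and 0.76. Only 1.51% of tested genes had a larger gap than *Vegfa* in treated libraries labelled knockout. The gaps had opposite signs in the treated groups for 6 of 8 members (75%), 51 of 71 other pathway genes (71.8%) and 68.1% of all tested genes, so the members were near the share of all genes. Over all tested genes the replicate deviations of the treated groups correlated with r = -0.47, across genes, which are not independent. The part of this pattern in the estimates of *Stc1*, *Vegfa* and *Ndrg1* was not tested beyond the values without single libraries given above.

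**Figure D5:**
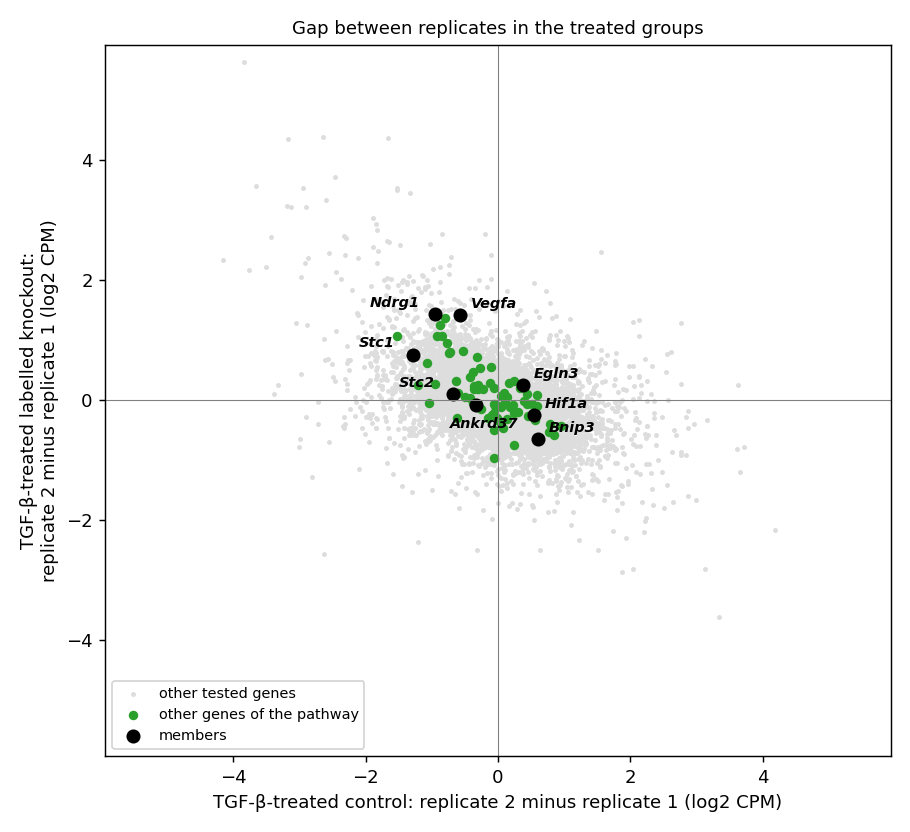
Difference of log2 CPM between replicate 2 and replicate 1 in treated control cells (horizontal) and in treated libraries labelled knockout (vertical) for all tested genes (grey), other genes of the pathway (green) and members (black). *Ndrg1* (-0.95, 1.44) and *Vegfa* (-0.57, 1.43) lie in the upper left, where the first control library and the second library labelled knockout were the higher ones.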

How the data were processed

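The authors deposited raw counts of reads per gene for 8 libraries in 1 table, with no normalization. Per the study's methods, reads were aligned with subjunc of Rsubread to mm10 and mm9, duplicates were removed with samtools rmdup, and counts were tested with DESeq2. The submitters' processing notes name HISAT2, limma and mm10 instead. The counting tool and strand setting are not given in the sources used here, and the sources also differ on the library kit and read layout. Gene identifiers matched GENCODE vM1 on mm9, which gave symbols, positions and exon lengths.

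With edgeR 4.0.16 (R 4.3.3), CPM with TMM factors and quasi-likelihood tests were obtained from the 13028 of 37310 genes that passed filterByExpr, with all 8 libraries in 1 model of the 4 groups and Benjamini-Hochberg adjustment over all tested genes. The common dispersion gave a biological coefficient of variation of 0.180, and 4 degrees of freedom remained. SE is the log2 fold change divided by the square root of F, and log2 CPM used a prior count of 2. Alternatives were DESeq2 1.42.0, limma 3.58.1 (voom), RLE factors, other filters on low counts, the replicate number as a block, a fit of the 4 libraries compared, calls by adjusted p alone, and leaving out single libraries. Intervals and floors cover counting error only.

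The members, lists and thresholds were chosen with earlier results of these data known. Named besides the members were up to 4 called genes per list, comparison and direction (smallest p first), HIF subunits and hydroxylases, the targeted gene, and the 5 genes most like *Stc1*. *Kdr*, at 0 counts, and the examples of overlapping genes fall outside this rule. A list gene that the rule names is not reported here, though it remains in the counts.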

Additional observations from a re-analysis of the deposited data

Results flagged for a closer look

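*Stc1* drew attention because its direction after TGF-β differed between genotypes. Both treated control libraries were above both untreated ones, while both treated libraries labelled knockout were below both untreated ones, and the difference of the log2 fold changes (labelled knockout minus control) was -4.03. With single libraries left out this difference ran from -4.56 to -2.98. The main fit did not call it. No test is read from it, since the libraries on which *Stc1* was selected enter it, and its control side rests on 2 and 1 counts without treatment.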

How the results depend on the processing

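The calls of *Egln3*, *Vegfa* and *Bnip3* were each lost without at least 1 library, whereas those of *Nt5e*, *Ccng2* and *Bhlhe40* after TGF-β were not. The 2 libraries per group leave 4 residual degrees of freedom, and *Stc1*, *Stc2* and *Ankrd37* had few counts. A mean of at least 10 counts, RLE factors and dropping the fold threshold left every count of members as it was. The cause of the following changes was not tested.

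For the members, the count called after TGF-β in control cells was 0, and became 2 with no filter on low counts (*Stc1* and *Vegfa*) and 0 to 1 with a library left out. In libraries labelled knockout it was 2, with 5 (*Stc1* and 4 others) and 0 to 2 in turn, and for the difference of the responses 0, with 2 (*Stc1* and *Vegfa*) and 0 to 0. *Stc1* carries no test here, and without it the counts with no filter were 1, 4 and 1. Between untreated genotypes the 1 member called was *Stc1*, on which the set was chosen. Without *Stc1* the count was 0 and stayed 0 with limma-voom. It became 1 (*Bnip3*) with DESeq2, with no filter and with only the 4 libraries of the comparison. Between treated genotypes the count of members was 1, and became 2 with no filter, 0 with the replicate block and 0 with only the 4 libraries.

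For the 71 other pathway genes, leaving out a library gave 5 to 16 called after TGF-β in control cells (15 with all), 6 to 16 in libraries labelled knockout (14 with all), 0 to 3 between untreated genotypes (1 with all) and 5 to 23 between treated genotypes (19 with all). With no filter the difference of responses gave 4, untreated genotypes 8 and treated genotypes 29. Untreated genotypes gave 4 with DESeq2, 0 with limma-voom, 0 with the replicate block and 9 with only the 4 libraries, where treated genotypes gave 5.

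Over all tested genes, TGF-β in control cells gave 1194 calls (2021 with no filter, 470 with only the 4 libraries, 145 to 1484 with a library left out) and in libraries labelled knockout 889 (1832 with no filter, 136 to 1381). The difference of responses gave 0 (30 with DESeq2, 211 with no filter, 0 to 6). Untreated genotypes gave 238 (428 with DESeq2, 137 with limma-voom, 756 with no filter, 150 with the block, 804 with only the 4 libraries, 42 to 390). Treated genotypes gave 1959 (410 with only the 4 libraries, 477 to 2762).

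The signs of treatment changes and response differences were checked for the members other than *Stc1*. These signs turned with a library left out and under no other alternative, in estimates that had not passed the test. Genotype differences that were not called had no such check under the other alternatives. With single libraries left out, the difference of responses ran from -0.69 to 0.42 for *Stc2* (above 0 without the first untreated or the first treated control library, at 0.025 and 0.42), from -0.37 to 0.16 for *Hif1a* (above 0 without the second treated control library), from -0.35 to 1.10 for *Ndrg1* (below 0 without the second treated library labelled knockout), and from -0.61 to 1.66 for *Ankrd37* (below 0 without the first untreated control library, at -0.0038, or the second untreated library labelled knockout). The change of *Ndrg1* in control cells ran from -0.19 to 0.77 and was below 0 without the first treated control library. Between genotypes the values ran from -0.35 to 0.16 untreated and -0.026 to 1.40 treated for *Vegfa*, and from -0.36 to 0.058 and -0.50 to 0.95 for *Ndrg1*.

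Replicate numbers come from the labels and nothing says that a number marks a shared culture or day. Same-numbered deviations correlated with r = 0.30 between untreated and treated control libraries, 0.098 between untreated genotypes, -0.0092 within libraries labelled knockout and -0.47 between treated groups. With the replicate number as a block, 2 members were still called in libraries labelled knockout, *Egln3* (adjusted p = 0.0267) and *Vegfa* (adjusted p = 0.0484). Crossing the numbers was not tried.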
